A study of Mus musculus with 12 samples.

Results

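The 10 genes described here act in quiescence, in cell cycle inhibition or in growth signalling, and they were followed on all 12 arrays of the series. They were the CDK inhibitor genes Cdkn1a, Cdkn1b, Cdkn2c and Cdkn2d, the cyclin gene Ccng2, the pocket protein gene Rbl2, the antiproliferative genes Btg1 and Btg2, and the insulin and PI3-kinase signalling genes Irs2 and Pik3ip1. They are 10 of the 18193 genes named on the array, and were chosen by name, with earlier results of these data known. Every probe set that the array annotation assigned to one of them and to no other gene was used, which gave 18 of the 45101 probe sets. Levels are the deposited log2 GCRMA expression values, and differences are on the same log2 scale. All 18 probe sets passed the filter on low values, a level above 4 on at least 3 arrays.

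The 12 one-colour Affymetrix arrays measured RNA of B220+ B cells, sorted by flow cytometry from mouse spleen. Each group had 3 arrays: Foxp1flox/del cells kept for 4 h with what the labels call IgM, Foxp1flox/del cells kept for 4 h without it, Foxp1wt/flox cells with IgM, and Foxp1wt/flox cells without it. They are called deleted and control cells below, and both genotypes carried a conditional (flox) allele on a mixed 129/Sv-C57BL/6 background. The labels name no Cre driver, give no age, and do not tell whether the 3 replicates were independent animals or cultures; a p-value therefore covers the spread among these arrays alone, which may be technical.

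A resting B cell stays in G0 because inhibitors of cyclin-dependent kinases and the pocket proteins keep E2F target genes silent. Forkhead proteins of the FOXO family maintain transcription of several of these brakes, among them Cdkn1b, Ccng2 and Rbl2. Signalling from the antigen receptor through PI3-kinase and Akt moves FOXO proteins out of the nucleus. Foxp1 encodes another forkhead protein, one that binds related DNA motifs.

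The targeted gene, Foxp1, gave no call between cells labelled Foxp1flox/del and cells labelled Foxp1wt/flox, so the genotype names below rest on the labels. The brightest of the 8 Foxp1 probe sets read 12.14, 12.74 and 13.06 in deleted cells given IgM and 12.26, 13.16 and 13.20 without it, against 12.08, 12.91 and 13.06 in control cells given IgM and 12.27, 13.14 and 13.30 without it. limma called 0 of the 8 between genotypes with or without IgM (smallest adjusted p 0.662 and 1.0, and 0 at an unadjusted p under 0.05). Whether these probe sets lie within the deleted part of the gene is not known here. One array stood apart: deleted IgM replicate 3 correlated with its group mates at 0.837 and 0.884 across the tested probe sets, whereas the other 10 pairs within groups lay between 0.948 and 0.977. Values of the 10 genes that use it are therefore also given without it where a difference moves by over 1.5 times, turns or changes its call, and calls with IgM in the other pathway lists are counted both ways. The defining B cell genes were present, with 11 of 12 listed B cell markers on the array and all of these above 4 on at least one array. Stimulation was visible, since 7 of 9 tested early response genes rose with IgM in each genotype, among them Nr4a1 by 2.92 in deleted and 1.68 in control cells and Egr2 by 3.86 and 2.79 on the log2 scale (limma adjusted p = 2.97e-05, 0.000417, 7.38e-05 and 0.000319). Egr1 rose by 3.04 in deleted cells and Fos rose by 1.76 in control cells (adjusted p = 0.00038 and 0.00143). Egr1 was also called higher with IgM in control cells, and Fos in deleted cells. Of all tested probe sets, 17% were called with IgM in deleted cells and 18.2% in control cells. Between genotypes without IgM, Nr4a1 was lower in deleted cells, with a difference of -1.77 (adjusted p = 0.000906), and was the 1 early response gene called there, against 4 lower with the replicate block described below and 2 without deleted IgM replicate 3. In the limma fit without the block, 7 of the 9 had an unadjusted p under 0.05 there, and the median difference over the list was -0.9. With IgM limma called 0 (4 at an unadjusted p under 0.05) and the block 2, both lower in deleted cells. Of all tested probe sets, 2.03% were called between genotypes without IgM and 1.19% with it. These shares were 5.36% and 4.8% with the block, and 3.96% and 1.34% without deleted IgM replicate 3.

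All 10 genes have promoter windows, 12 in all, in the RefSeq table of build GRCm38.p6, each reaching from 250 bases before a transcription start to 50 after it. The CDK inhibitor genes lie at chr17:29090979-29100722 (Cdkn1a), chr6:134920401-134925525 (Cdkn1b), chr4:109660876-109666756 (Cdkn2c) and chr9:21288459-21291421 (Cdkn2d). Ccng2 lies at chr5:93267573-93276231, Rbl2 at chr8:91070057-91123844, Btg1 at chr10:96617001-96622813 and Btg2 at chr1:134074865-134079155. Irs2 lies at chr8:10984681-11008929 and Pik3ip1 at chr11:3319241-3342971. The windows were searched on both strands for the forkhead core TGTTTAC and for the shorter TGTTT, which is contained in the first. TGTTTAC was present in 1 of the 12 windows, that of Btg1, and in 3.65% of all 32851 windows. TGTTT was present in 6 of the 12 windows, those of Btg1, Ccng2, Cdkn1b, Cdkn2d, Irs2 and Pik3ip1, and in 50.5% of all windows, so its share among the members was about that of any promoter. Stretches of 100 bases from 4 of these windows are shown because they come from 2 members that fell with IgM (Ccng2 and Cdkn1b), the member that rose (Irs2) and the one that holds the full core and was not called (Btg1). Capitals mark TGTTT or its reverse complement. The stretches lie at chr5:93267473-93267572 (plus strand, -100 to -1 from the start) for Ccng2, chr6:134920301-134920400 (plus strand, -100 to -1) for Cdkn1b, chr8:11008930-11009029 (minus strand, -100 to -1) for Irs2 and chr10:96616751-96616850 (plus strand, -250 to -151) for Btg1.
Ccng2: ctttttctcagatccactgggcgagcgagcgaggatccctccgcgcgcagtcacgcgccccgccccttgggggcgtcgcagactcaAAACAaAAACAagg
Cdkn1b: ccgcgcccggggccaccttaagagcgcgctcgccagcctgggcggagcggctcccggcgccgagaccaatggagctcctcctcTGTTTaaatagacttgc
Irs2: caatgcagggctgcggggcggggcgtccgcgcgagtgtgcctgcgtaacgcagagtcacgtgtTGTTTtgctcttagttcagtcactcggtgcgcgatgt
Btg1: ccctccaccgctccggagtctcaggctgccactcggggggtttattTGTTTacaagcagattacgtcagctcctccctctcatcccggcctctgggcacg
The Ccng2 stretch holds AAACA at -14 and again at -8, and the Btg1 stretch holds the full core TGTTTAC at -204. These matches describe the letters in the windows only.

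The clearest change across the 10 genes came with IgM. RNA of Cdkn1b, Cdkn2d, Ccng2, Rbl2 and Btg2 fell in both genotypes, and Irs2 RNA rose in both. In deleted cells 6 of the 18 probe sets fell and 1 rose, against 7.04% and 9.95% of all 19187 tested probe sets (limma, Benjamini-Hochberg adjusted p under 0.05 over all of them, all such calls together 17%). In control cells 7 fell and 1 rose, against 9.91% and 8.24% of all tested (18.2% together). The median log2 change of the 18 was -0.90 in deleted and -1.11 in control cells, beside 0.02 and -0.01 over all tested probe sets. The median in deleted cells was -0.53 without deleted IgM replicate 3. In deleted cells the 3 IgM arrays lay below all 3 unstimulated arrays for 6 of the 18 (14.8% of all tested), and above them for 1 (17.8%). In control cells this held for 11 (21.9%) and 1 (21.2%). Same-numbered arrays deviated together, so the fit was repeated with the replicate number as a block. It called 9 falls and 2 rises in deleted cells (15.3% and 19.1% of all tested) and 11 falls and 3 rises in control cells (17.4% and 16% of all tested), including all calls of the fit without the block. Without deleted IgM replicate 3, 7 fell and 1 rose in deleted cells (21.1% of all tested were called), and 10 fell and 1 rose in control cells (30.6%). The number of calls in deleted cells was 4 without deleted unstimulated replicate 3 (11.8% of all tested), and that in control cells 5 without control IgM replicate 2 (12.2%). Leaving out every array of replicate 2, which leaves 8 arrays, gave 0 in deleted cells (limma, 1.35% of all tested) and 1 in control cells (2.2%).

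**Figure D1:**
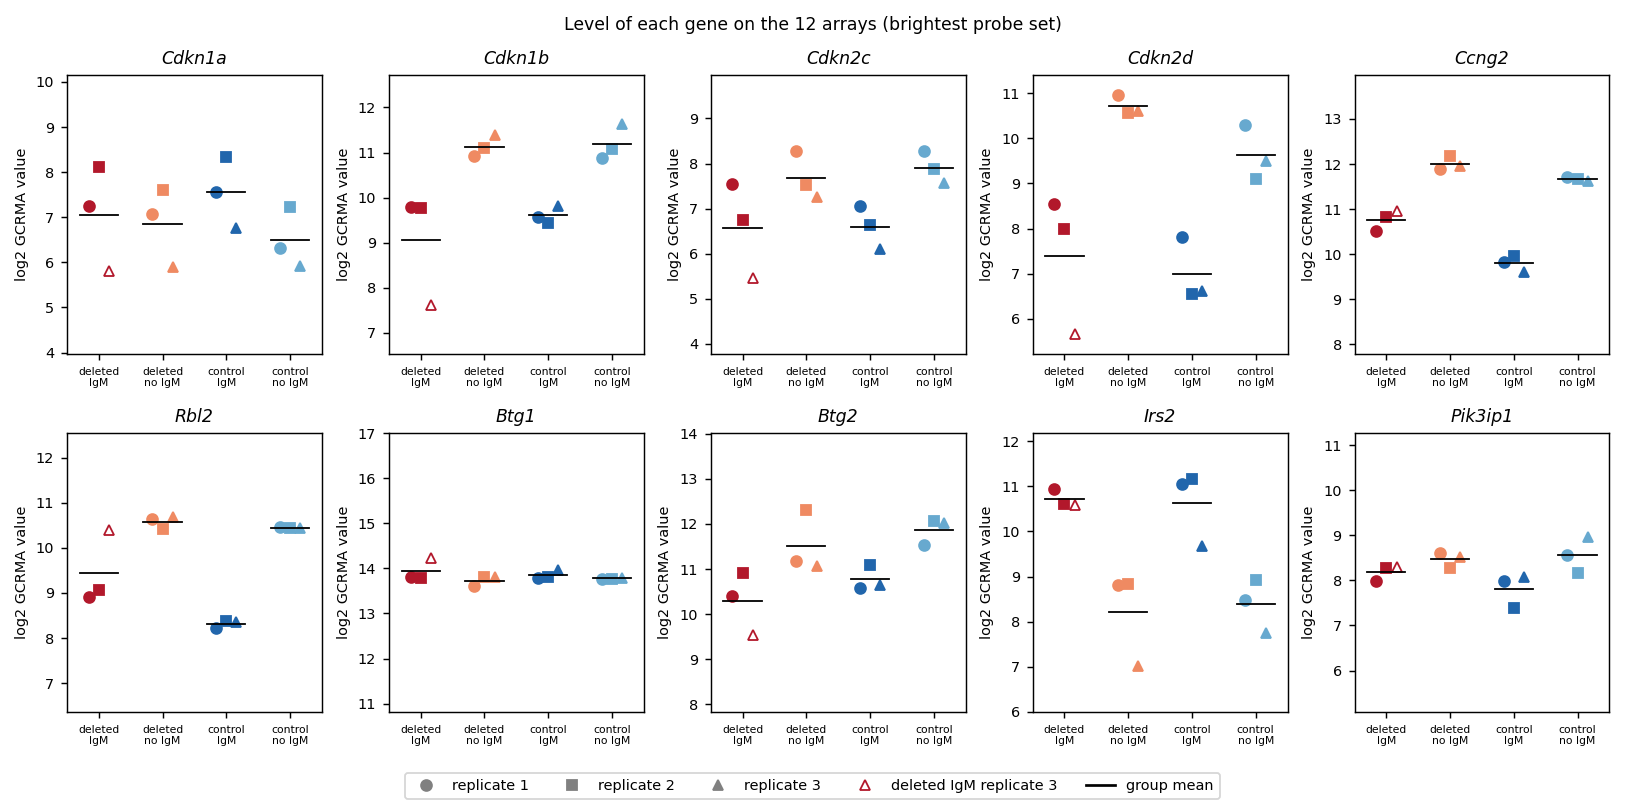
Log2 GCRMA values of the brightest probe set of each of the 10 genes (vertical axes, each spanning the same range of log2 units), with 1 point per array, symbols for replicate number and black lines for group means (n = 3). The open triangle is deleted IgM replicate 3. In both genotypes IgM arrays lie below unstimulated ones for Cdkn1b, Cdkn2d, Ccng2, Rbl2 and Btg2 and above them for Irs2.

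Among the inhibitors of the Cip/Kip family, Cdkn1b encodes p27, which binds and blocks cyclin E-CDK2 and is abundant in quiescent lymphocytes. Its brighter probe set (1434045_at) read 9.80, 9.76 and 7.62 in deleted cells given IgM and 10.92, 11.09 and 11.38 without it, against 9.56, 9.44 and 9.82 in control cells given IgM and 10.87, 11.08 and 11.64 without it. All IgM arrays lay below all unstimulated arrays, and the lowest value was that of deleted IgM replicate 3. Cdkn1b fell by 2.07 on the log2 scale in deleted cells (SE 0.50, limma adjusted p = 0.0159), or by 1.35 without that array (SE 0.24, adjusted p = 0.00424). In control cells it fell by 1.59, 3.01-fold (SE 0.50, adjusted p = 0.0474). The call in control cells was lost when any 1 of 9 arrays was left out, with the highest adjusted p, 0.153, without control unstimulated replicate 3, while leaving out deleted IgM replicate 3 gave an adjusted p of 0.000675. The call in deleted cells was lost without deleted unstimulated replicate 3 (adjusted p = 0.0571). The dimmer probe set of Cdkn1b (1419497_at) averaged 3.60 and 4.30 in deleted cells with and without IgM, and 3.64 and 4.75 in control cells, close to the array floor of 2.23. Its differences of -0.70 and -1.11 did not pass (adjusted p = 0.254 and 0.0733, the second 0.0227 with the replicate block).

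Cdkn1a encodes p21, the inhibitor that p53 induces after DNA damage and that is also induced early in mitogen responses. Its brighter probe set (1424638_at) read 7.26, 8.12 and 5.80 in deleted cells given IgM and 7.08, 7.61 and 5.89 without it, against 7.56, 8.33 and 6.77 in control cells given IgM and 6.32, 7.22 and 5.91 without it. In every group the array of replicate 2 was the highest and that of replicate 3 the lowest, and the 4 groups overlapped. Cdkn1a differed with IgM by 0.20 ± 0.65 in deleted cells (SE, limma adjusted p = 0.862) and by 1.07 ± 0.65 in control cells (SE, adjusted p = 0.313). With the replicate block the rise in control cells passed (adjusted p = 0.00494), with differences of 1.24, 1.11 and 0.85 within replicates 1, 2 and 3. The same differences in deleted cells were 0.18, 0.51 and -0.08 (adjusted p = 0.489 with the block). In deleted cells the difference was 0.83 ± 0.61 without deleted IgM replicate 3 (SE, adjusted p = 0.404, or 0.0533 with the block as well). The dimmer probe set (1421679_a_at) differed by 0.29 and 0.92 (adjusted p = 0.858 and 0.56, the second 0.041 with the block), the first 1.11 without deleted IgM replicate 3 (adjusted p = 0.442), and its replicate 3 arrays lay between 3.09 and 3.33 in all 4 groups.

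The INK4 family was represented by Cdkn2c and Cdkn2d, which encode p18 and p19, inhibitors of CDK4 and CDK6. Cdkn2d (1416253_at) read 8.55, 7.98 and 5.66 in deleted cells given IgM and 10.97, 10.57 and 10.61 without it, against 7.82, 6.54 and 6.61 in control cells given IgM and 10.30, 9.10 and 9.50 without it. IgM and unstimulated arrays did not overlap in either genotype. With all 12 arrays Cdkn2d had the largest IgM change of the 18 probe sets in both genotypes, whereas without deleted IgM replicate 3 the 2.55 of Irs2 exceeded it in deleted cells. It fell by 3.32 in deleted cells, 9.96-fold (SE 0.65, limma adjusted p = 0.00633), or by 2.45 without deleted IgM replicate 3 (SE 0.44, adjusted p = 0.00433). In control cells it fell by 2.65, 6.26-fold (SE 0.65, adjusted p = 0.0176). The control call was lost without control IgM replicate 2 (adjusted p = 0.0668), control IgM replicate 3 (0.0681) or control unstimulated replicate 1 (0.0716). Cdkn2c (1416868_at) read 7.54, 6.75 and 5.46 in deleted cells given IgM and 8.27, 7.53 and 7.26 without it, against 7.06, 6.64 and 6.10 in control cells given IgM and 8.29, 7.89 and 7.57 without it. The control groups did not overlap, and the deleted groups did. The differences of Cdkn2c, -1.10 ± 0.49 in deleted and -1.31 ± 0.49 in control cells (SE), did not pass (adjusted p = 0.153 and 0.0907) and passed with the replicate block (adjusted p = 0.00854 and 0.00346), and all 3 within-replicate differences were negative in each genotype. Leaving out deleted IgM replicate 3 gave a difference of -0.54 ± 0.39 in deleted cells (SE, adjusted p = 0.4, or -0.75 with an adjusted p of 0.00215 with the block as well), and that in control cells passed (adjusted p = 0.0195).

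Rbl2 encodes p130, the pocket protein that binds E2F4 in quiescent cells as part of the DREAM repressor complex. Its brighter probe set (1425981_a_at) read 8.90, 9.06 and 10.40 in deleted cells given IgM and 10.65, 10.42 and 10.69 without it, against 8.22, 8.37 and 8.35 in control cells given IgM and 10.47, 10.43 and 10.45 without it. Here deleted IgM replicate 3 was the highest array of its group, 1.42 above the mean of the other two, and it lay just under the unstimulated arrays. Rbl2 fell by 1.13 in deleted cells (SE 0.33, limma adjusted p = 0.0396), or by 1.61 without that array (SE 0.14, adjusted p = 0.00018). In control cells it fell by 2.14, 4.41-fold (SE 0.33, adjusted p = 0.00162). The call in deleted cells was lost when any of the other 11 arrays was left out (adjusted p up to 0.12, without deleted IgM replicate 2). The second probe set of Rbl2 (1418146_a_at) fell by 2.07 in control cells (adjusted p = 0.00774). In deleted cells it differed by -1.18 (adjusted p = 0.0913, or 0.0183 with the replicate block). Without deleted IgM replicate 3 it differed by -1.8 there (adjusted p = 0.000677).

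Ccng2 encodes cyclin G2, an unusual cyclin that is high in arrested cells and slows cell cycle entry. Its brighter probe set (1416488_at) read 10.52, 10.83 and 10.95 in deleted cells given IgM and 11.89, 12.17 and 11.96 without it, against 9.82, 9.97 and 9.60 in control cells given IgM and 11.71, 11.67 and 11.62 without it. On this probe set the 4 groups formed 4 separate levels, and no array crossed into a neighbouring group. They ran from deleted without IgM at the top through control without IgM and deleted with IgM to control with IgM. Ccng2 fell by 1.25 with IgM in deleted cells, 2.37-fold (SE 0.19, limma adjusted p = 0.00189), and fell by 1.87 in control cells, 3.66-fold (SE 0.19, adjusted p = 0.000204). The control call passed in all 25 alternatives. The second probe set (1448364_at) fell by 1.26 in deleted cells (adjusted p = 0.0413) and fell by 2.42 in control cells (adjusted p = 0.00157). Its call in deleted cells was lost on leaving out any 1 of 9 arrays, with adjusted p up to 0.123 without deleted unstimulated replicate 3. On this second probe set the levels were not all separate. It read 7.93, 8.61 and 9.50 in deleted cells given IgM. The last value, that of deleted IgM replicate 3, lay within the ranges of unstimulated deleted (9.49 to 10.18) and control cells (9.41 to 9.74). These 2 unstimulated groups also overlapped each other. When deleted IgM replicate 3 was left out, the brighter probe set fell by 1.34 and the second fell by 1.67 in deleted cells (adjusted p = 0.000859 and 0.00439).

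Btg1 and Btg2 encode related proteins that recruit the CCR4-NOT deadenylase and restrain T and B cell activation. The brightest Btg1 probe set (1426083_a_at) stayed within 13.60 to 14.22 on all 12 arrays, and the 4 groups overlapped. Its IgM differences were 0.21 ± 0.19 in deleted and 0.07 ± 0.19 in control cells (SE, limma adjusted p = 0.476 and 0.867), the first 0.07 without deleted IgM replicate 3. The other 2 Btg1 probe sets differed by 0.30 and 0.76 in deleted (0.17 and 0.92 without that array) and by 0.15 and 0.25 in control cells, and none passed, although the 0.76 of 1442018_at did with the replicate block (adjusted p = 0.0477). Btg2 was read by 2 probe sets of similar brightness. One (1448272_at) read 10.64, 10.32 and 10.31 in deleted cells given IgM and 11.76, 11.35 and 11.51 without it, against 10.62, 10.48 and 10.01 in control cells given IgM and 11.92, 11.48 and 11.20 without it. No IgM array reached the unstimulated arrays. It fell by 1.12 in deleted and fell by 1.16 in control cells (SE 0.25 each, adjusted p = 0.0117 and 0.00915), the first with an adjusted p of 0.0537 without deleted unstimulated replicate 1. The other (1416250_at) differed by -1.23 and -1.11 (SE 0.40 each), which passed with the replicate block (adjusted p = 0.00813 and 0.0126) and not without it (0.0619 and 0.0848). With no block and deleted IgM replicate 3 left out, the first was -0.85 (adjusted p = 0.15) and the second passed (adjusted p = 0.033).

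Irs2 encodes an adaptor that couples insulin, IGF-1 and interleukin-4 receptors to PI3-kinase, and its transcription is under FOXO control in liver. It rose with IgM in both genotypes. Its single probe set (1443969_at) read 10.94, 10.60 and 10.59 in deleted cells given IgM and 8.81, 8.84 and 7.02 without it, against 11.06, 11.16 and 9.68 in control cells given IgM and 8.48, 8.92 and 7.75 without it. All IgM arrays lay above all unstimulated arrays. Irs2 rose by 2.49 in deleted cells, 5.60-fold (SE 0.54, limma adjusted p = 0.00995), or by 2.55 without deleted IgM replicate 3, and by 2.25 in control cells, 4.76-fold (SE 0.54, adjusted p = 0.0151). The control call was lost without control IgM replicate 1 (adjusted p = 0.0586), control IgM replicate 2 (0.0623) or control unstimulated replicate 3 (0.0633). Pik3ip1 encodes a membrane protein that binds and inhibits the catalytic subunit of PI3-kinase. Its brighter probe set (1439087_a_at) ranged from 7.38 to 8.97 over the 12 arrays. It differed with IgM by -0.28 ± 0.26 in deleted and -0.75 ± 0.26 in control cells (SE, adjusted p = 0.508 and 0.075), and the control difference passed with the replicate block (adjusted p = 0.0189) and without deleted IgM replicate 3 (0.048). The other probe set differed by -0.17 and -0.41 and did not pass in any alternative.

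**Figure D2:**
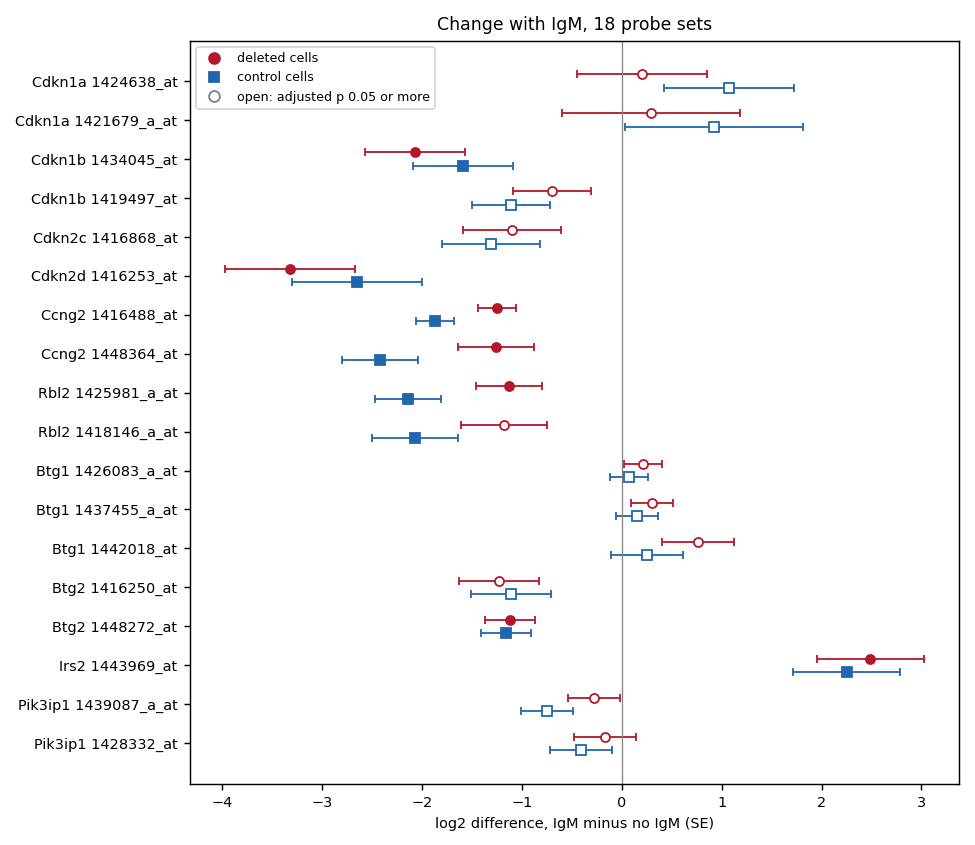
Log2 difference between IgM and unstimulated arrays for the 18 probe sets (horizontal axis, bars are SE of the limma fit, n = 3 per group), with deleted cells as circles above control cells as squares. Filled symbols passed an adjusted p of 0.05, and they fall left of 0 for Cdkn1b, Cdkn2d, Ccng2, Rbl2 and Btg2 and right of 0 for Irs2.

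Within same-numbered arrays the IgM response of the brightest probe sets kept its direction in most genes. In deleted cells Irs2 was higher with IgM in 3 of 3 pairs, and Cdkn1b, Cdkn2c, Cdkn2d, Ccng2, Rbl2 and Btg2 were lower in 3 of 3. In control cells the same 6 genes and Pik3ip1 were lower in 3 of 3 pairs, and Irs2, Cdkn1a and Btg1 were higher in 3 of 3, Btg1 by no more than 0.17. For Cdkn2d, replicates 1, 2 and 3 differed by -2.42, -2.59 and -4.94 in deleted cells, against -2.49, -2.56 and -2.89 in control cells. For Rbl2 they differed by -1.75, -1.36 and -0.29 in deleted cells, against -2.26, -2.06 and -2.11 in control cells. The pair that holds deleted IgM replicate 3 was thus the most extreme for Cdkn2d and the least for Rbl2. Relative to the mean of its group mates that array deviated by -2.6 for Cdkn2d, -1.89 for Cdkn1a and -2.15 for Cdkn1b (brighter probe sets), genes that span 3.0, 9.7 and 5.1 kb of the genome, and by 1.42 for Rbl2, which spans 53.8 kb. Ccng2 (8.7 kb), Btg1 (5.8 kb) and Irs2 (24.2 kb) moved by 0.27, 0.42 and -0.18 there. Cdkn2c (5.9 kb), Btg2 (4.3 kb) and Pik3ip1 (23.7 kb) moved by -1.69, -1.12 and 0.17. The other probe sets moved by -2.46 (Cdkn1a), -0.52 (Cdkn1b), 1.24 (Ccng2), 1.86 (Rbl2), 0.37 and -0.49 (Btg1), -0.17 (Btg2) and 0.03 (Pik3ip1). The median absolute deviation of that array was 0.82 over the 18 probe sets, beside 0.88 over all tested. The part of gene span in these deviations was not tested.

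The order of the 4 group means differed among the genes. Cdkn2d and Rbl2 shared the order of Ccng2, with deleted and control cells overlapping with IgM for Cdkn2d (though not without deleted IgM replicate 3) and without IgM for Rbl2. With all 12 arrays Cdkn1b and Cdkn2c were highest in unstimulated control cells and lowest in deleted cells with IgM. Without deleted IgM replicate 3 their deleted minus control differences with IgM were 0.17 and 0.55, so that control cells with IgM were lowest. For both genes arrays of the 2 genotypes overlapped within each treatment. Irs2 was highest in deleted cells with IgM, and its only gap lay between treated and untreated cells. For Cdkn1a, Btg1, Pik3ip1 and the brightest Btg2 probe set, all groups with neighbouring means overlapped. IgM and unstimulated arrays of the same genotype were still apart for this Btg2 probe set in both genotypes. They were also apart for the brighter Pik3ip1 probe set in control cells.

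**Figure D3:**
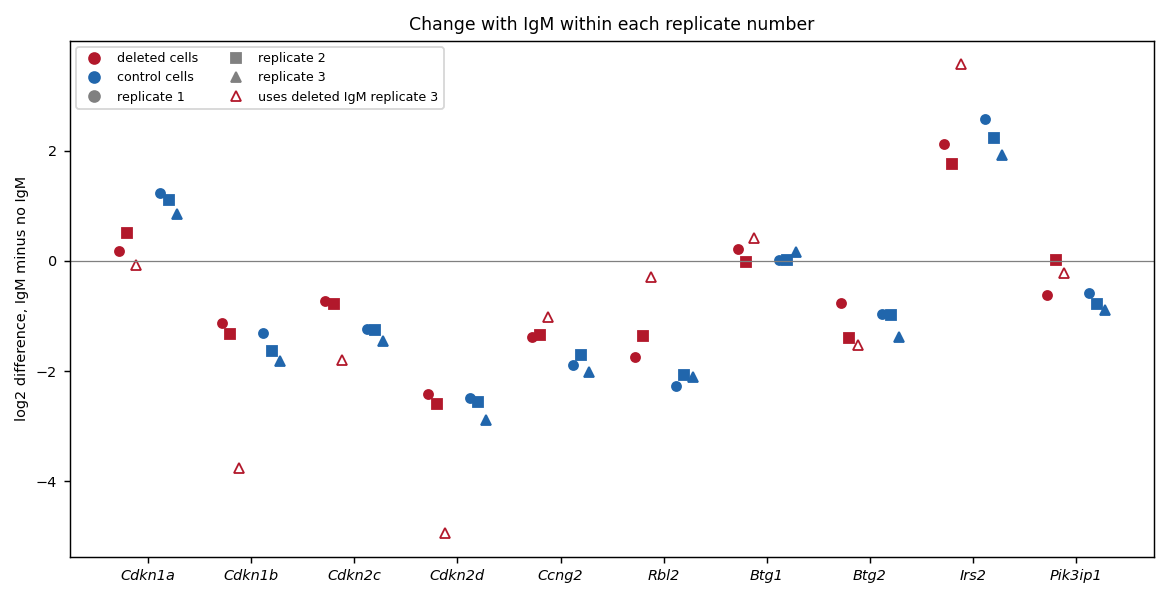
Log2 difference between the IgM and the unstimulated array of the same genotype and replicate number (vertical axis) for the brightest probe set of each gene, with deleted cells to the left of control cells and symbols for replicate number. The open triangles use deleted IgM replicate 3 and lie apart from the other 2 deleted pairs for Cdkn1b, Cdkn2c, Cdkn2d, Rbl2 and Irs2. For Irs2 the low array of that pair is deleted unstimulated replicate 3, at 7.02 beside 8.81 and 8.84. Deleted IgM replicate 3 deviated from its group mates by -0.18 there.

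Between genotypes, 1 of the 10 genes was called, Ccng2, in the comparison with IgM. Without IgM, limma called 0 of the 18 probe sets, against 2.03% of all tested, and 0 had an unadjusted p under 0.05. The median difference, deleted minus control, was -0.02, beside -0.04 over all tested probe sets. Deleted and control arrays did not overlap for 2 probe sets, Cdkn2d and the brighter one of Ccng2, both higher in deleted cells (8.03% of all tested lay apart in that direction). Cdkn2d averaged 10.72 ± 0.22 in deleted and 9.63 ± 0.61 in control cells (SD, n = 3 each), a log2 difference of 1.08 ± 0.65 (SE, adjusted p = 0.781). The Cdkn2d difference passed when the replicate block was used and deleted IgM replicate 3 was left out (adjusted p = 0.00851, where 16.7% of all tested probe sets were called), and in none of the other 24 alternatives. Ccng2 averaged 12.01 ± 0.15 in deleted and 11.67 ± 0.05 in control cells (SD, n = 3 each), a difference of 0.34 ± 0.19 (SE, adjusted p = 0.727).

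With IgM, 1 of the 18 probe sets was called, the brighter one of Ccng2, against 1.19% of all tested. Ccng2 averaged 10.76 ± 0.22 in deleted and 9.80 ± 0.19 in control cells (SD, n = 3 each), a rise of 0.97 or 1.95-fold (SE 0.19, limma adjusted p = 0.044). The call was near the threshold: leaving out any 1 of 10 arrays ended it, with adjusted p up to 0.216 without control IgM replicate 3, and over all alternatives the adjusted p ran from 0.00449 to 0.593. It was 0.0441 without deleted IgM replicate 3 (1.34% of all tested called) and 0.0142 with the replicate block (4.8% called). The second Ccng2 probe set differed by 1.53 ± 0.38 (SE, adjusted p = 0.0876, or 0.0213 with the replicate block). Deleted and control arrays did not overlap for 4 of the 18 probe sets, both of Ccng2 and both of Rbl2, each higher in deleted cells (10.2% of all tested). The brighter Rbl2 probe set differed by 1.14 ± 0.33 (SE, adjusted p = 0.164) and by 0.66 ± 0.14 without deleted IgM replicate 3 (adjusted p = 0.0681, or 0.0149 with the replicate block as well, where 8.08% of all tested probe sets were called). Its differences within replicates 1, 2 and 3 were 0.68, 0.68 and 2.05. Those of Ccng2 were 0.69, 0.86 and 1.35. Without deleted IgM replicate 3 the second probe sets of Ccng2 and Rbl2 differed by 1.12 and 0.41 (adjusted p = 0.139 and 0.597), against 1.53 and 1.03 with all arrays. Cdkn2d differed by 0.41 with all arrays and by 1.28 ± 0.44 without that array (SE, adjusted p = 0.796 and 0.269), and by 1.18 with the replicate block as well (adjusted p = 0.0193). In this last fit 5 probe sets were called, Cdkn2d, both of Ccng2 and both of Rbl2, all higher in deleted cells. The deleted minus control differences of Cdkn1a, Cdkn1b and Cdkn2c (brighter probe sets) were -0.49, -0.55 and -0.02 with all arrays and 0.14, 0.17 and 0.55 without that array, and none passed in either fit. The median of the 18 was 0.08 with all arrays and 0.20 without it.

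**Figure D4:**
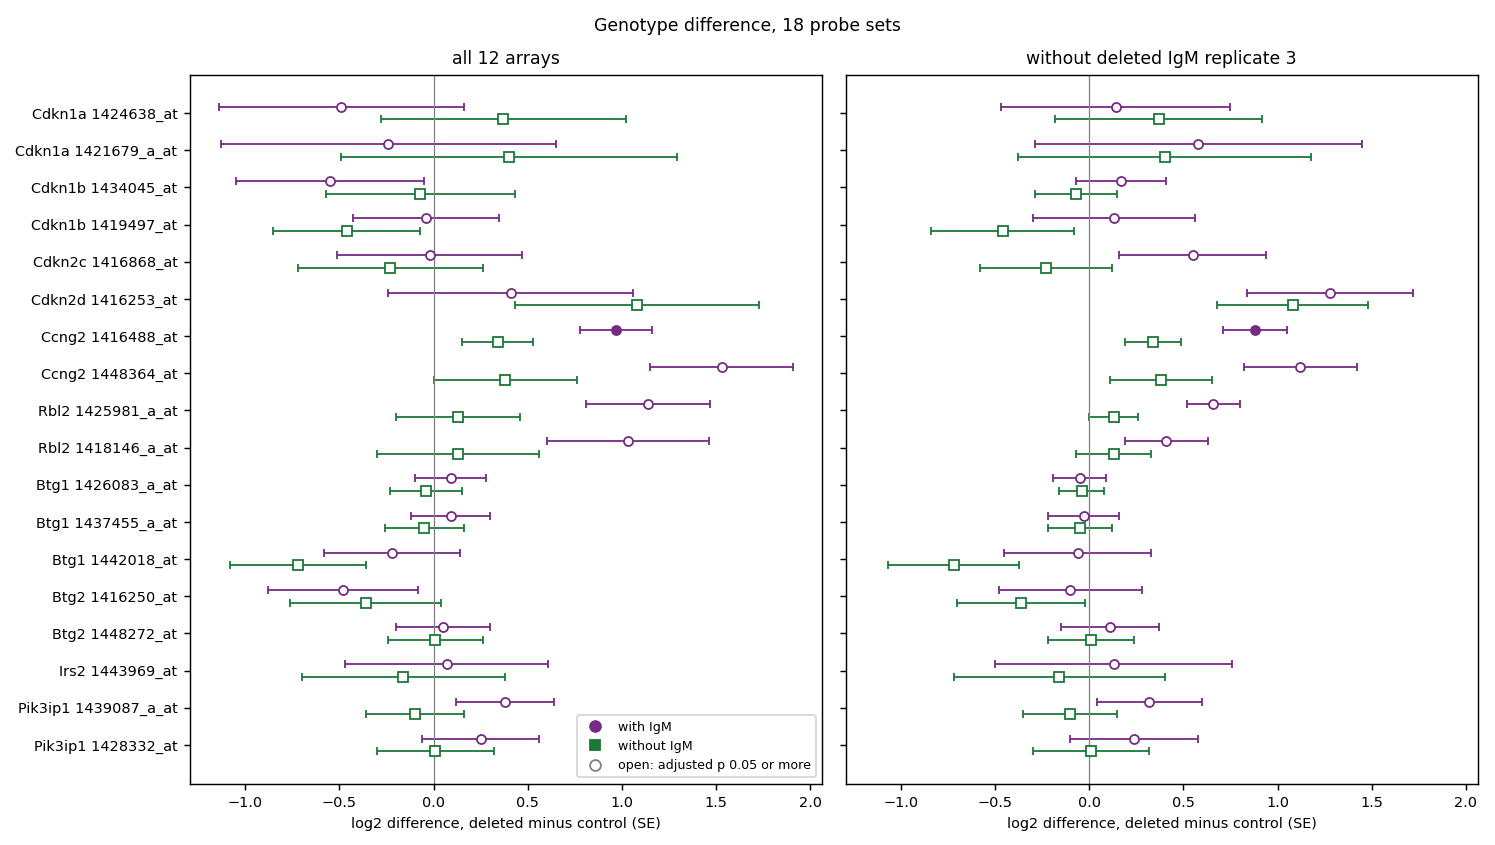
Log2 difference between deleted and control arrays for the 18 probe sets (horizontal axes, bars are SE of the limma fit), with IgM as circles and without IgM as squares, from all 12 arrays on the left and without deleted IgM replicate 3 on the right. The only filled symbol, which marks an adjusted p under 0.05, is that of Ccng2 with IgM, at 0.97 and 0.88.

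The IgM response itself was compared between genotypes by the interaction, the change in deleted cells minus that in control cells. limma called 0 of the 18 probe sets (0.099% of all tested), with 1 at an unadjusted p under 0.05. The interaction was 0.63 ± 0.27 for the brighter Ccng2 probe set and 1.01 ± 0.47 for the brighter one of Rbl2 (SE, adjusted p = 0.968 each). The 3 within-replicate values were positive for both, 0.51, 0.36 and 1.01 for Ccng2 and 0.50, 0.70 and 1.81 for Rbl2. For Cdkn1a the interaction was -0.86 ± 0.91, for Cdkn2d -0.67 ± 0.92 and for Irs2 0.24 ± 0.76 (SE). For Cdkn1b it was -0.48 ± 0.70 and for Cdkn2c 0.21 ± 0.69 (SE). The interaction without deleted IgM replicate 3 was 0.53 ± 0.23 for Ccng2, 0.53 ± 0.19 for Rbl2 and -0.23 ± 0.82 for Cdkn1a (SE, adjusted p = 1.0, 0.927 and 1.0). Without it those of Cdkn2d and Cdkn1b turned positive, at 0.20 and 0.24, and that of Cdkn2c was 0.77. No member passed in any alternative.

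Levels of marker genes of other blood cells were read on the same arrays. Summed linear values of the 10 neutrophil markers on the array ranged from 1818 to 14803 in deleted and from 290 to 1667 in control cells with IgM, and from 4025 to 25271 in deleted and from 413 to 2918 in control cells without it. One of them, Cxcr2, was at or below 4 on all arrays. limma called 0 of the 9 tested neutrophil markers between genotypes, with 2 at an unadjusted p under 0.05 with IgM and 4 without it, and the fit with the replicate block called 2 and 4, all higher in deleted cells. With deleted IgM replicate 3 left out, limma called 1 with IgM and 1 without it. Of all tested probe sets, the block called 4.8% between genotypes with IgM and 5.36% without it. Leaving out that array gave 1.34% and 3.96%. For the 11 macrophage and monocyte markers the sums ranged from 491 to 2454 in deleted and from 201 to 478 in control cells with IgM, and from 774 to 3090 in deleted and from 239 to 579 in control cells without it, and 6 of them (Fcgr1, C1qa, C1qb, C1qc, Itgam and Ms4a7) were at or below 4 throughout. The sums of the 8 NK cell markers ranged from 379 to 1875 in deleted and from 236 to 1199 in control cells with IgM, and from 981 to 2898 in deleted and from 352 to 1834 in control cells without it. Those of the 7 dendritic cell markers (Batf3 and Xcr1 at or below 4) ranged from 570 to 1441 in deleted and from 865 to 1303 in control cells with IgM, and from 2079 to 2930 in deleted and from 909 to 1154 in control cells without it. Sums of the 5 erythroid markers (Hba-a1, Epor and Klf1 at or below 4) ranged from 116 to 365 in deleted and from 76 to 85 in control cells with IgM. Without it they ranged from 137 to 901 in deleted and from 82 to 118 in control cells. Those of the 8 T cell markers (Cd4, Cd8a and Zap70 at or below 4) stayed between 239 and 697 in deleted and between 135 and 452 in control cells. Ranges of deleted and control cells were thus apart for the neutrophil and macrophage lists and for the erythroid list with and without IgM, and for the dendritic list without it. The summed B cell markers were lower with IgM, at 41259 to 50239 in deleted and 36629 to 41248 in control cells, against 75630 to 81321 and 82769 to 85262 without it. Their ranges in deleted and control cells were also apart. Deleted cells were lower without IgM and, by a narrow gap, higher with it. The part of these shifts in the values of Ccng2, Rbl2 and the other genes was not tested. In RNA of sorted populations, fewer cells of a type and less RNA per cell cannot be told apart.

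Other genes of the same pathway were represented by their brightest probe set. The list counts here and below stand beside these shares of all tested probe sets called in either direction. With IgM they were 17% in deleted and 18.2% in control cells. They were 34.4% and 33.4% with the replicate block, and 21.1% and 30.6% without deleted IgM replicate 3. Between genotypes they were 1.19% with IgM and 2.03% without it. The block gave 4.8% and 5.36%, and leaving out that array 1.34% and 3.96%. Of the FOXO factors and targets, 17 were tested. With IgM 5 fell and 2 rose in deleted cells, and 9 fell and 2 rose in control cells, with medians of -0.55 and -1.11. The replicate block called 9 falls in deleted cells and 13 in control cells, and leaving out deleted IgM replicate 3 gave 9 and 12, with 2 rises in each genotype in both fits. The trafficking factor gene Klf2 fell by 2.68 in deleted cells and fell by 2.55 in control cells (limma adjusted p = 0.0011 and 0.00121). In control cells the stress-response gene Sesn1 fell by 2.11 (adjusted p = 0.000403) and Foxo1 itself fell by 1.41 (adjusted p = 0.000999). In deleted cells Trib1, a pseudokinase gene, rose by 2.14 and the pro-apoptotic gene Bcl2l11 rose by 1.25 (adjusted p = 0.00219 and 0.00231). Sesn1 was also called lower with IgM in deleted cells, and Trib1 was also called higher in control cells. Foxo1 was called in control cells only, and Bcl2l11 in deleted cells only. Foxo1 averaged 9.43 with IgM and 9.98 without it in deleted cells, and Bcl2l11 12.26 and 11.88 in control cells. The interaction of genotype and IgM was called for 0 genes of the list (4 at an unadjusted p under 0.05), so no difference in response is shown. Among cells without IgM, Trib1 and Bcl2l11 were lower in deleted than in control cells, with differences of -1.58 and -0.92 (adjusted p = 0.0432 and 0.0442), calls that 9 and 11 of the 12 single-array omissions ended, with adjusted p up to 0.18 without control unstimulated replicate 1 and up to 0.177 without control unstimulated replicate 2. Among cells given IgM, the egress receptor gene S1pr1 was higher in deleted than in control cells, with means of 9.36 and 7.96 and a difference of 1.41 (adjusted p = 0.0483), a call that each of the 12 omissions ended (adjusted p up to 0.215 without control IgM replicate 3, and 0.0836 without deleted IgM replicate 3). The block called 2 genes of the list in this comparison, both higher in deleted cells.

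Of 11 tested genes of the insulin receptor and PI3-kinase pathway, 3 fell with IgM in deleted cells and 5 in control cells. The replicate block called 5 falls in deleted cells and 6 in control cells, and leaving out deleted IgM replicate 3 gave 6 in each. Pik3cg, a catalytic subunit gene, fell by 1.95 in deleted cells and fell by 2.65 in control cells (limma adjusted p = 0.000303 and 5.85e-05). The insulin receptor gene Insr fell by 1.46 in deleted cells and fell by 2.56 in control cells (adjusted p = 0.0383 and 0.00235), the first lost in 9 of 12 omissions (adjusted p up to 0.131, without deleted unstimulated replicate 3). The regulatory subunit gene Pik3r2 fell by 0.95 in deleted cells (adjusted p = 0.0192, or 0.0743 without deleted unstimulated replicate 3), and was also called lower in control cells. Its means with and without IgM were 3.34 and 4.29 in deleted and 3.08 and 3.98 in control cells. These lie close to the array floor of 2.23. Pik3r1, another regulatory subunit gene, fell by 1.10 in control cells (adjusted p = 0.00432). Between genotypes Pik3cg was higher in deleted cells, by 1.68 with IgM and by 0.97 without it (adjusted p = 0.00523 and 0.0437, the second 0.184 without deleted unstimulated replicate 1), and was the 1 gene of the list called, where the replicate block called 2 with IgM and 1 without it.

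Among 8 G1 cyclin and kinase genes, 2 rose and 2 fell with IgM in deleted cells, and 2 rose and 1 fell in control cells, where the replicate block called 4 rises and 2 falls. Leaving out deleted IgM replicate 3 gave 3 rises and 3 falls in deleted cells and 3 rises and 2 falls in control cells. Ccnd2, the D-type cyclin gene induced by the antigen receptor, rose by 1.61 in deleted and 0.95 in control cells (limma adjusted p = 0.00392 and 0.0433, the second 0.141 without control unstimulated replicate 1). Ccnd3, another D-type cyclin gene, fell by 1.99 in deleted cells and fell by 1.76 in control cells (adjusted p = 0.00224 and 0.00379). Ccne1 fell by 1.34 in deleted cells and Cdk6 rose by 1.14 in control cells (adjusted p = 0.00189 and 0.00265). Cdk6 was also called higher with IgM in deleted cells, while Ccne1 was not called in control cells. The interaction was called for 0 of the 8 genes (1 at an unadjusted p under 0.05). Of 14 tested genes of pocket proteins, E2F and the DREAM complex, 1 rose and 1 fell in deleted cells and 1 rose and 3 fell in control cells, against 2 rises and 3 falls in each genotype with the replicate block and 1 rise and 3 falls in each without deleted IgM replicate 3. E2f2 fell by 2.32 in deleted cells and fell by 2.40 in control cells (adjusted p = 0.000441 and 0.000305). The E2F partner gene Tfdp1 rose by 1.13 and 1.04 (adjusted p = 0.00547 and 0.00758), and its relative Tfdp2 fell by 1.66 in control cells (adjusted p = 0.0018). Between genotypes limma called 0 genes of these lists (at an unadjusted p under 0.05, 2 of each with IgM, and 3 of 8 and 0 of 14 without it), whereas the replicate block called 1 of the pocket protein genes with IgM and 2 of the cyclin and kinase genes without it. Without deleted IgM replicate 3, 1 cyclin or kinase gene was higher and 1 lower in deleted cells without IgM.

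Among 4 tested genes of the Btg and Tob family, Tob2 rose with IgM in control cells by 0.81 (limma adjusted p = 0.0145, or 0.0628 without control IgM replicate 1), and the replicate block called 3 rises and 1 fall in each genotype. Leaving out deleted IgM replicate 3 gave 2 rises in deleted cells and 2 rises and 1 fall in control cells. Between genotypes limma called 0 of the 4 (1 at an unadjusted p under 0.05 with IgM and 1 without it), and the block called 1, lower in deleted cells with IgM. The brightest probe sets of Cdkn1c, Cdkn2a, Cdkn2b and Cdkn3, the other 4 inhibitor genes listed, did not pass the filter and were not tested. For the 3 genes of the cyclin G and I list limma and its fit with the replicate block made 0 calls, with 1 at an unadjusted p under 0.05, in the IgM comparison of control cells, where 1 fell without deleted IgM replicate 3.

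The members were also set beside all other genes for likeness of pattern, taken as the root mean square difference over the 12 arrays after each brightest probe set was centred on its own mean. Group means of 8 members spanned at least 1 log2 unit, and 9291 other genes were searched for each. Nearest to Ccng2 were Cyb561a3 and Mob3a, at 0.149 and 0.179. Nearest to Rbl2 were Rcsd1 and Sesn1, at 0.195 and 0.204, nearest to Cdkn2d Pafah1b3 and AB124611, at 0.212 and 0.37, and nearest to Cdkn1b Smim14 and Rdm1, at 0.249 and 0.258. Cdkn2c lay nearest to Pigyl and Urod, at 0.198 and 0.202, and Btg2 nearest to Rbms1 and Ccdc28a, at 0.243 and 0.293. Irs2 and Cdkn1a were matched less closely, Irs2 by Chst11 and Lss at 0.512 and 0.534 and Cdkn1a by Fdft1 and Basp1 at 0.347 and 0.382. All these arrays share the pairing by replicate number and the array that stood apart, both of which enter the measure.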

How the data were processed

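The authors deposited log2 expression values per probe set, made by GCRMA according to the submitters' processing notes. This method models background by probe sequence, quantile-normalizes the arrays and combines the probes of a set, and its version and settings are not given in the sources used here. Values run between 2.23 and 15.79, and the lower end is a floor near which changes are compressed. Arrays carry no read depth, and their number limits the precision. The array annotation gave 1 gene to 34945 of the 45101 probe sets, several to 932 and none to 9160, beside 64 controls. For 34741 of them the symbol was looked up again by gene identifier, and promoters and spans came from RefSeq tables of GRCm38.p6.

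All tests used limma 3.58.1 (R 4.3.3) on the 19187 probe sets above 4 on at least 3 arrays, with 1 mean per group, a spread shared by the 12 arrays, and two-sided p-values adjusted by Benjamini-Hochberg over all of them at 0.05. The script was tested on simulated data. Probe sets rather than genes were tested because several genes have probe sets that differ. Replicate numbers 1 to 3 come from the labels. In every pair of groups, arrays with the same number deviated from their group means together. Their correlations were 0.19 to 0.84 across probe sets, above the limit of 0.1. The numbers were treated as pairs in the fits with the replicate block only. All calls not said to use the block come from fits that leave the pairing out. Blocked values stand where they change a call of a member, and for the other lists blocked counts stand where they differ from the unblocked ones by over 1.5 times.

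Members, gene lists and tests were chosen with earlier results of these data known. The text names all members, up to 3 called genes per other list and comparison with the smallest p, and the 2 nearest genes in pattern for each member whose group means spanned 1 or more. Where a gene named for IgM in 1 genotype was also called in the other, that is stated without its value. Alternatives covered the filter, 1 probe set per gene, normalization, the replicate block, the variance model, array weights, the arrays fitted and leaving out arrays. The block combined with leaving out deleted IgM replicate 3 was chosen after the data were seen, as was the gene-by-gene estimation of array weights.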

Additional observations from a re-analysis of the deposited data

How the results depend on the processing

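The number of member probe sets called depended on the setting more than their directions did. The limits named here are few arrays, the pairing by replicate number, one array that stood apart, and a floor that compresses low values. From 7 called in deleted cells and 8 in control cells with IgM, no filter gave 3 and 5 (5.17% and 5.73% of all 45037 tested were called), and 1 probe set per gene gave 5 in control cells (20.7% of 9293), where only 10 probe sets were left to call. Fitting only the arrays compared gave 1 in deleted cells (4.72% of 19187, as below). With the replicate block the counts were 11 in deleted and 14 in control cells, and 2 between genotypes with IgM (34.4%, 33.4% and 4.8% of all tested); the block changed no other call count. With the replicate block and without deleted IgM replicate 3 they were 14 in control cells, 5 between genotypes with IgM and 1 without (57.1%, 8.08% and 16.7%). The single genotype call with IgM became 0 when arrays were centred on their medians, quantile normalized again or fitted alone (limma, 0.954%, 0.943% and 0% of all tested), and 3 with array weights (5.27%). Leaving out arrays, singly or all of one replicate number, gave 0 to 8 in deleted cells (1.35% to 21.1% of all tested), 1 to 11 in control cells (2.2% to 30.6%), 0 to 2 between genotypes with IgM (0% to 1.34%), and 0 between genotypes without it and for the interaction. The lowest IgM counts came without all arrays of replicate 2, a fit to 8 arrays. Over 90 differences of single probe sets and 25 settings, 2192 values were computed: 92 dropped below the threshold, 46 passed it newly, 0 called differences turned, and 112 turned sign while not past the threshold in either fit.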

Other observations

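Cdkn1a is a classical target of p53, and other targets of that factor were read by their brightest probe sets. For this and the following lists, the share of all tested probe sets called with IgM was 17% in deleted and 18.2% in control cells. It was 34.4% and 33.4% with the replicate block, and 21.1% and 30.6% without deleted IgM replicate 3. Of 11 tested p53 targets, 3 rose and 1 fell with IgM in deleted cells, and 3 rose and 2 fell in control cells, against 4 rises in each genotype with the replicate block and 2 falls in deleted and 3 in control cells without deleted IgM replicate 3. The nuclease gene Aen rose by 1.31 in deleted and 1.39 in control cells and the stress-response gene Sesn2 by 1.80 in deleted cells (limma adjusted p = 0.0032, 0.00197 and 0.0119, the last 0.0529 without deleted unstimulated replicate 1). The polo-like kinase gene Plk2 rose by 1.57 in deleted cells (adjusted p = 0.00339). In control cells Gadd45a fell by 2.38 and Trp53inp1 fell by 1.10 (adjusted p = 0.00353 and 0.00429). Sesn2 and Plk2 were also called higher with IgM in control cells, and Gadd45a was also called lower in deleted cells. Between genotypes limma called 0 of the 11 targets, with 3 at an unadjusted p under 0.05 with IgM and 2 without it. The median over the list was 0.16 in deleted and -0.12 in control cells, beside 0.02 and -0.01 over all tested probe sets.

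Of the 5 tested plasma cell markers, 2 rose with IgM in deleted cells, and 1 rose and 1 fell in control cells, with medians of -0.16 and -0.27. The summed values of the 6 on the array were 16136 to 20054 in deleted and 19368 to 20575 in control cells with IgM, and 12230 to 17059 in deleted and 14927 to 18431 in control cells without it, with Tnfrsf17 at or below 4. Irf4, which acts in activated B cells and plasma cells, rose by 1.82 in deleted and 1.11 in control cells (limma adjusted p = 0.000213 and 0.00238), and the plasma cell factor gene Prdm1 rose by 2.32 in deleted cells (adjusted p = 0.000542). Among cells given IgM, Prdm1 was higher in deleted than in control cells, by 1.56 (adjusted p = 0.0256, or 0.103 without control IgM replicate 2), and the replicate block called 2 of the list there. Among cells without IgM, Irf4 was lower in deleted cells, with a difference of -0.89 (adjusted p = 0.0337, or 0.138 without control unstimulated replicate 2). Sdc1, the plasma cell surface gene for CD138, fell by 1.75 in control cells with IgM (adjusted p = 0.00265).

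Of 11 tested B cell markers, 2 rose and 3 fell with IgM in deleted cells and 3 fell in control cells, against 2 rises and 5 falls, and 1 rise and 7 falls, with the replicate block. Without deleted IgM replicate 3, 6 fell and 1 rose in control cells. The Src family kinase gene Blk rose by 1.10 and the complement receptor gene Cr2 rose by 2.21 in deleted cells (limma adjusted p = 0.00596 and 0.00803). In control cells Cd22, an inhibitory co-receptor gene, fell by 2.01 (adjusted p = 0.0214, or 0.0837 without control IgM replicate 1), and Pax5, the B cell identity factor gene, fell by 1.77 (adjusted p = 0.0352, or 0.136 without control IgM replicate 3). Pax5 was also called lower with IgM in deleted cells. The B cell receptor component gene Cd79b fell by 1.93 in deleted cells and fell by 1.58 in control cells (adjusted p = 0.00827 and 0.0205, the second 0.0752 without control IgM replicate 3). Between genotypes limma called 0 of the 11 (1 at an unadjusted p under 0.05 with IgM and 3 without it), and the block called 2 without IgM, both lower in deleted cells. Of 4 tested T cell markers 1 was called with IgM, Cd5, which negatively regulates antigen receptor signalling and which rose by 3.01 in deleted and 2.40 in control cells (adjusted p = 0.00189 and 0.00536). The block also called 1 T cell marker lower with IgM in deleted cells and 1 higher in deleted than in control cells given IgM.

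Of 5 tested macrophage and monocyte markers, Csf1r was higher in deleted than in control cells, by 3.99 with IgM and 3.69 without it (limma adjusted p = 0.0256 and 0.0245, or 0.0677 and 0.0283 without deleted IgM replicate 3, and up to 0.127 and 0.105 without control IgM replicate 3 and control unstimulated replicate 3). Adgre1, the gene for F4/80, was lower in deleted cells without IgM, with a difference of -1.45 (adjusted p = 0.0437, or 0.18 without control unstimulated replicate 1), and fell by 2.06 with IgM in control cells (adjusted p = 0.00148). The replicate block called 2 of the 5 higher in deleted cells with IgM, and 3 higher and 1 lower without it, and leaving out deleted IgM replicate 3 gave 2 higher and 1 lower without IgM. Of 7 tested NK cell markers, Klrk1 was higher in deleted cells without IgM, by 1.56 (adjusted p = 0.0175, or 0.0798 without control unstimulated replicate 3), and the block called 2 there and 3 with IgM, where limma without it called 0 (2 at an unadjusted p under 0.05). With IgM the block called 3 NK cell markers lower in deleted cells and 1 in control cells. Of 4 tested dendritic cell markers, Zbtb46 rose with IgM by 2.29 in deleted and 1.51 in control cells (adjusted p = 0.00264 and 0.0193, the second 0.076 without control unstimulated replicate 1), and Bst2, an interferon-induced gene, fell by 2.24 in deleted cells (adjusted p = 0.0427, or 0.126 without deleted unstimulated replicate 1). The block called 2 rises of this list in control cells. Between genotypes limma called 0 of the 4 dendritic and 0 of the 2 erythroid markers (1 of each at an unadjusted p under 0.05 with IgM, and 3 and 2 without it), and the block called 1 higher and 1 lower dendritic marker and 1 higher erythroid marker without IgM, and 1 higher dendritic marker with it.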
